A study of Homo sapiens with 12 samples.

Results

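Cohesin and its loaders were described by 10 genes, the core ring subunits SMC1A, SMC3 and RAD21, the STAG subunits STAG1 and STAG2, the loader genes NIPBL and MAU2, and PDS5A, PDS5B and WAPL. The 10 genes were chosen by name, with earlier results of these data known, from the 59385 gene names of the count table. All 10 were among the 18166 genes that passed the filter on low counts. The cells were HEK293T, a human embryonic kidney line, carrying a doxycycline (Dox)-inducible short hairpin RNA against PRRC2B (shPRRC2B) or a non-silencing control hairpin (shCtrl). Both lines received Dox for 36 h, and total RNA and the RNA of pooled polysome fractions were sequenced after poly(A) enrichment in 3 biological replicates of each, which gave 12 libraries in 4 groups. Each hairpin was carried by 1 single-clone line, so the effect of the hairpin and a difference between the clones cannot be told apart.

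Cohesin is a ring-shaped complex that holds sister chromatids together from replication until mitosis and extrudes loops of chromatin in interphase. SMC1A and SMC3 form the arms of the ring and the kleisin RAD21 closes it. One of the alternative subunits STAG1 and STAG2 binds to RAD21. NIPBL, with its partner MAU2, loads the ring on chromatin and drives its ATPase, while WAPL opens the ring and takes it off, and the PDS5 proteins take part in both holding and release. Lowered dosage of NIPBL causes Cornelia de Lange syndrome, and STAG2 is often mutated in cancers.

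PRRC2B is an RNA-binding protein, and 2 of the members carry a site at which it was crosslinked by PAR-CLIP, a method that maps protein-bound RNA, both as full-length protein and as its RNA-binding fragment P2. The RNA of these shared sites is shown here because PRRC2B is the protein that the hairpin targets. The SMC1A stretch, at chrX:53412964-53413046 on the minus strand of GRCh38, lies in coding exon 5, and the NIPBL stretch, at chr5:36984807-36984903 on the plus strand, lies in coding exon 10. One more sequence, at chr3:136736367-136736466 on the minus strand, is a site of the full-length protein alone in an intron of STAG1, and is shown for contrast. Capitals mark the longest run of purines (G or A) in the coding stretches and of pyrimidines (C or T) in the intron.
SMC1A: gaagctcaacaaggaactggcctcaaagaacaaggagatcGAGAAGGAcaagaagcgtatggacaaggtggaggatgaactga
NIPBL: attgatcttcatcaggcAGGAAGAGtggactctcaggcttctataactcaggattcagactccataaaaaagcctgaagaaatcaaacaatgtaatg
STAG1 intron: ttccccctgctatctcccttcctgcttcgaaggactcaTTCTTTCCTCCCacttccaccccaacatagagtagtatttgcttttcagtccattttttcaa
The SMC1A stretch of 83 nt was 73.5% purine, above the 60.8% of the whole SMC1A coding sequence. The NIPBL stretch of 97 nt was 56.7% purine, close to the 56.2% of its coding sequence. The intronic STAG1 site was 72% pyrimidine. RAD21 also had a site of the full-length protein alone, with 84 of its 100 nt in coding sequence.

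Translation efficiency (TE) is the polysome level of an mRNA over its total level, and the TE change is the log2 of that ratio in shPRRC2B over shCtrl cells. TE fell for 8 of the 10 members and rose for 0 (also 0 at an unadjusted p under 0.05, and 0 by DESeq2 and limma). The largest falls were those of NIPBL (-1.71), SMC1A (-1.69), PDS5B (-1.55) and STAG2 (-1.53), followed by SMC3 (-1.28), RAD21 (-1.10), WAPL (-0.91) and PDS5A (-0.83). STAG1 (-0.05) and MAU2 (-0.06) did not pass the test. The test was the quasi-likelihood test of edgeR, adjusted by Benjamini and Hochberg's method over all genes, and a call needed both an adjusted p below 0.05 and a change past 0.5 on the log2 scale. Over all genes tested, 16.4% were called lower in TE and 10.7% higher. The median TE change was -1.19 over the members and -0.03 over all genes.

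All 10 members have long mRNAs, and TE changes in these libraries followed transcript length. The canonical transcripts of the members ran from 3660 nt (RAD21) to 10425 nt (NIPBL), all above the median of 3052 nt of the genes tested. Among the 6723 genes with transcripts over 3500 nt, a length that every member exceeds, 33.7% were called lower in TE and 4.70% higher, and the median TE change was -0.45. When a smooth trend of counts on mRNA length was taken out of every library, 6 of the 10 members were still called lower in TE, against 9.93% of all genes called lower and 10.8% called higher. The 6 were SMC1A, SMC3, RAD21, STAG2, NIPBL and PDS5B, with TE changes between -0.97 and -0.79. PDS5A (-0.19) and WAPL (-0.34) no longer passed, and STAG1 (0.50) and MAU2 (0.36) turned positive without passing. Across the 10 members Spearman's rho between transcript length and TE change was -0.65 (Pearson's r with log2 length -0.52), as a description of 10 genes from the same libraries.

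**Figure D1:**
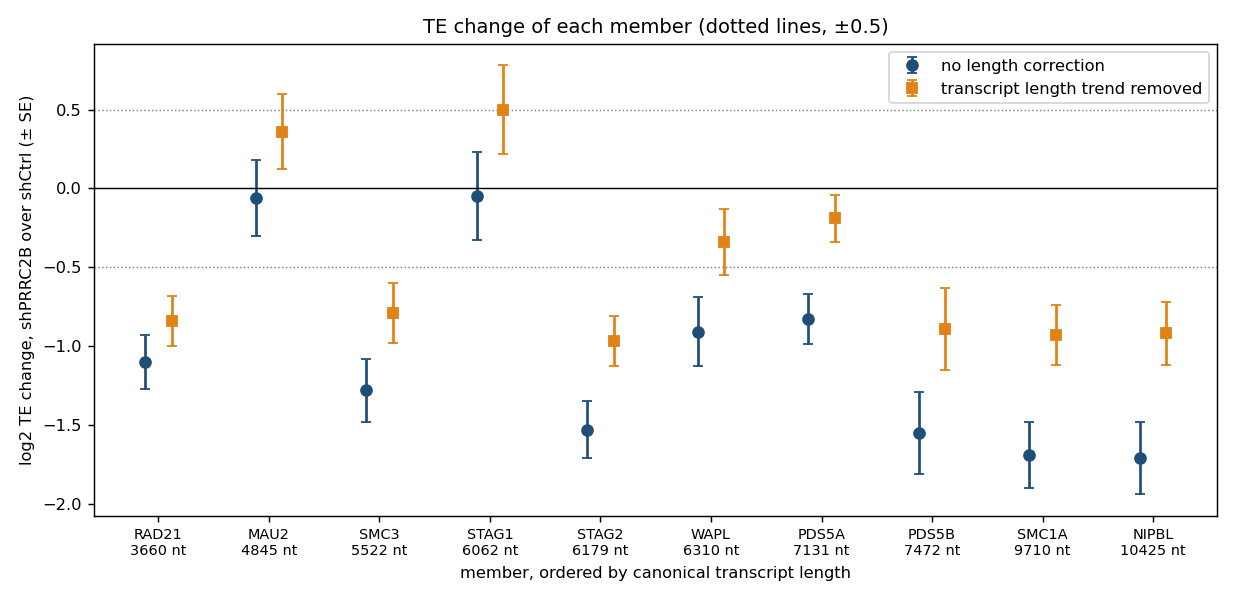
Log2 TE change of each member (y axis, shPRRC2B over shCtrl, ± SE of the fit) ordered by canonical transcript length, without a length correction (circles) and after removal of the length trend (squares). Without the correction 8 members lie below -0.5, and with it SMC1A, SMC3, RAD21, STAG2, NIPBL and PDS5B stay below -0.5.

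The members were set against genes of like length in 10 length classes of equal size. In the class of the longest transcripts, from 7407 nt, the median TE change was -0.76 and 45.7% of genes were called lower. NIPBL, SMC1A and PDS5B belong to that class and lay between -1.71 and -1.55. The class from 5565 to 7404 nt had a median of -0.58 and 38.5% called lower. Of its 4 members, STAG2 lay well below the median, WAPL and PDS5A were nearer to it, and STAG1 lay above it. SMC3 (-1.28) and MAU2 (-0.06) lay on opposite sides of the median of -0.37 of the class from 4479 to 5561 nt. RAD21 (-1.10) was in the class from 3053 to 3698 nt, where the median was -0.15 and 17.8% were called lower.

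**Figure D2:**
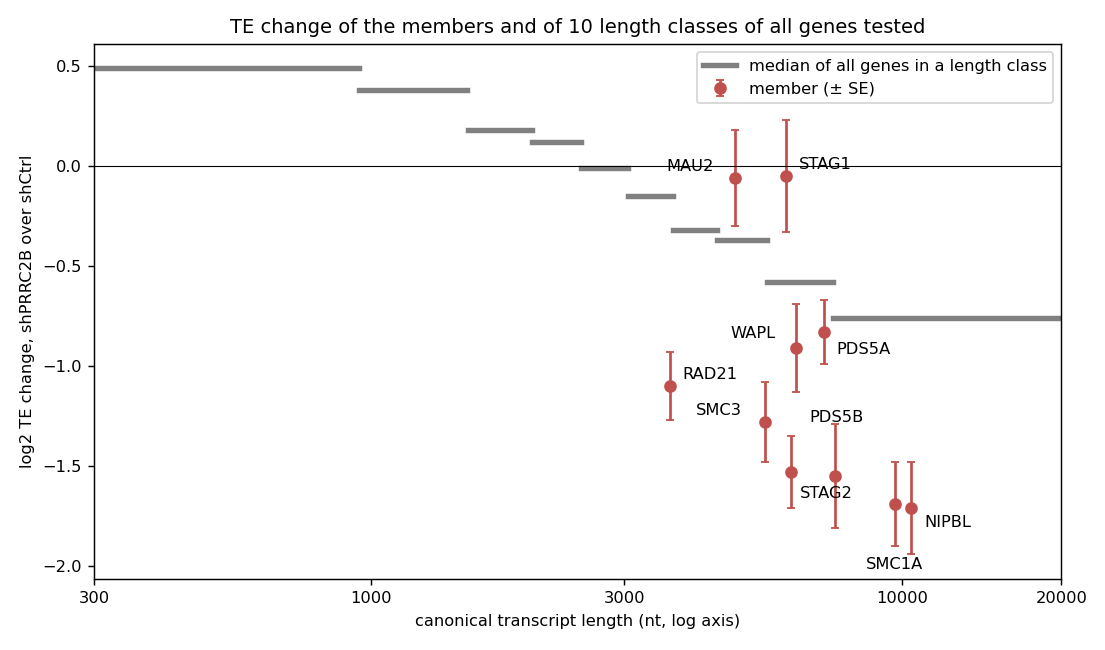
Log2 TE change (y axis, shPRRC2B over shCtrl) of the 10 members (points, ± SE) by canonical transcript length (x axis, log scale), with the median of all genes in each of 10 length classes (grey bars, drawn within the limits of the axis). The class medians go from 0.49 in the shortest to -0.76 in the longest class; 8 members lie below the median of their class, and STAG1 and MAU2 above.

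The knockdown was checked first. PRRC2B stood at 272, 313 and 258 TMM-normalized CPM (counts scaled to a common library size, by edgeR's TMM method) in the shCtrl total RNA libraries and at 97.9, 103 and 100.5 in the shPRRC2B ones, a log2 change of -1.49 (SE 0.17, edgeR adjusted p = 4.25e-06). Libraries held 9855734 to 20837542 counts, and mitochondrial genes took 2.84% to 6.07% of them. KRT8, KRT18, NEFL, NEFM and PAX2, all known to be expressed in HEK293 cells, were detected in every group. Of the genes chosen as markers of other cell types, the blood genes PTPRC, CD3E and HBB had at most 1 count in a library. ALB had at most 5 counts, but COL1A1 was detected in every group. As CPM of library totals, KRT8 was 123 to 135 in shCtrl and 27.4 to 28.7 in shPRRC2B total RNA, and NEFM 388 to 435 and 129 to 134. COL1A1 was 21.5 to 27.1 in shCtrl and 41.5 to 47.0 in shPRRC2B total RNA. LIN28B, also chosen as an expected gene and detected in every group, was 93.5 to 100 and 185 to 201. The nuclear RNA NEAT1 was 322 to 396 in shCtrl and 122 to 150 in shPRRC2B total RNA. The lines thus differed in these genes too, and their part in the results was not tested. The nuclear RNA MALAT1 ranged from 10.9 to 253 CPM among the shCtrl polysome libraries, and without the third, the highest, 8 members were still called lower in TE. The expression-weighted mean transcript length was 4077 to 4311 nt in the total RNA libraries and 1954 to 2133 nt in the polysome libraries.

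The core ring subunits lost polysome RNA while their total RNA was level or somewhat higher. SMC1A, the X-linked arm subunit, measured 442, 454 and 459 CPM in shCtrl total RNA and 558, 552 and 545 CPM in shPRRC2B total RNA. In polysome RNA SMC1A measured 48.4, 66.5 and 62.1 CPM in shCtrl and 24.4, 25.3 and 17.1 CPM in shPRRC2B cells. The groups did not overlap in either fraction, with shPRRC2B above shCtrl in total RNA and below it in polysomes. Its polysome RNA fell by 1.40 on the log2 scale (SE 0.16, edgeR adjusted p = 2.37e-06), while the total RNA difference of 0.29 (SE 0.14, adjusted p = 0.132) did not pass the test. The TE change was -1.69 (SE 0.21, adjusted p = 4.28e-05). In bulk RNA a change in the mixture of cells and a change of RNA per cell cannot be told apart. Of the genes tested, 21.4% were called lower and 18.4% higher in polysome RNA, and 14.1% lower and 14.9% higher in total RNA.

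SMC3, the partner arm, had a like pattern on a smaller scale. Its total RNA stood at 132, 128 and 139 CPM in shCtrl and at 183, 186 and 182 CPM in shPRRC2B cells. The polysome levels were 32.8, 34.9 and 31.4 CPM in shCtrl and 19.5, 22.6 and 14.2 CPM in shPRRC2B cells. Here too the shPRRC2B libraries were the higher ones in total RNA and the lower ones in polysomes, with no overlap. Polysome RNA of SMC3 fell by 0.81 (SE 0.15, adjusted p = 0.000241), and TE by 1.28 (SE 0.20, adjusted p = 0.000219), both on the log2 scale. The total RNA change of 0.46 (SE 0.13, adjusted p = 0.012) stayed under the size set for a call. With the length trend removed, the polysome change was -0.42 and no longer reached that size.

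RAD21, the kleisin that closes the ring, is the shortest of the mRNAs and was the member with the highest polysome level per kilobase of canonical transcript. With all-exon lengths it was below PDS5A in shPRRC2B polysomes (3.37 against 3.55). Total RNA of RAD21 was 221, 207 and 233 CPM in shCtrl and 206, 224 and 208 CPM in shPRRC2B cells, and these groups overlapped. In polysomes it was 100.3, 105 and 118 CPM in shCtrl and 54.2, 44.1 and 47.3 CPM in shPRRC2B cells, without overlap. The polysome change was -1.15 (SE 0.12, adjusted p = 1.53e-06) and the total RNA change -0.05 (SE 0.12, adjusted p = 0.767), so the TE change of -1.10 (SE 0.17, adjusted p = 0.00021) came with no called change of the mRNA level. RAD21 shares 847 nt of exon sequence with MIR3610, RAD21-AS1 and UTP23, and no strand setting is stated for the counting, so pairs in that stretch cannot be assigned with certainty.

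**Figure D3:**
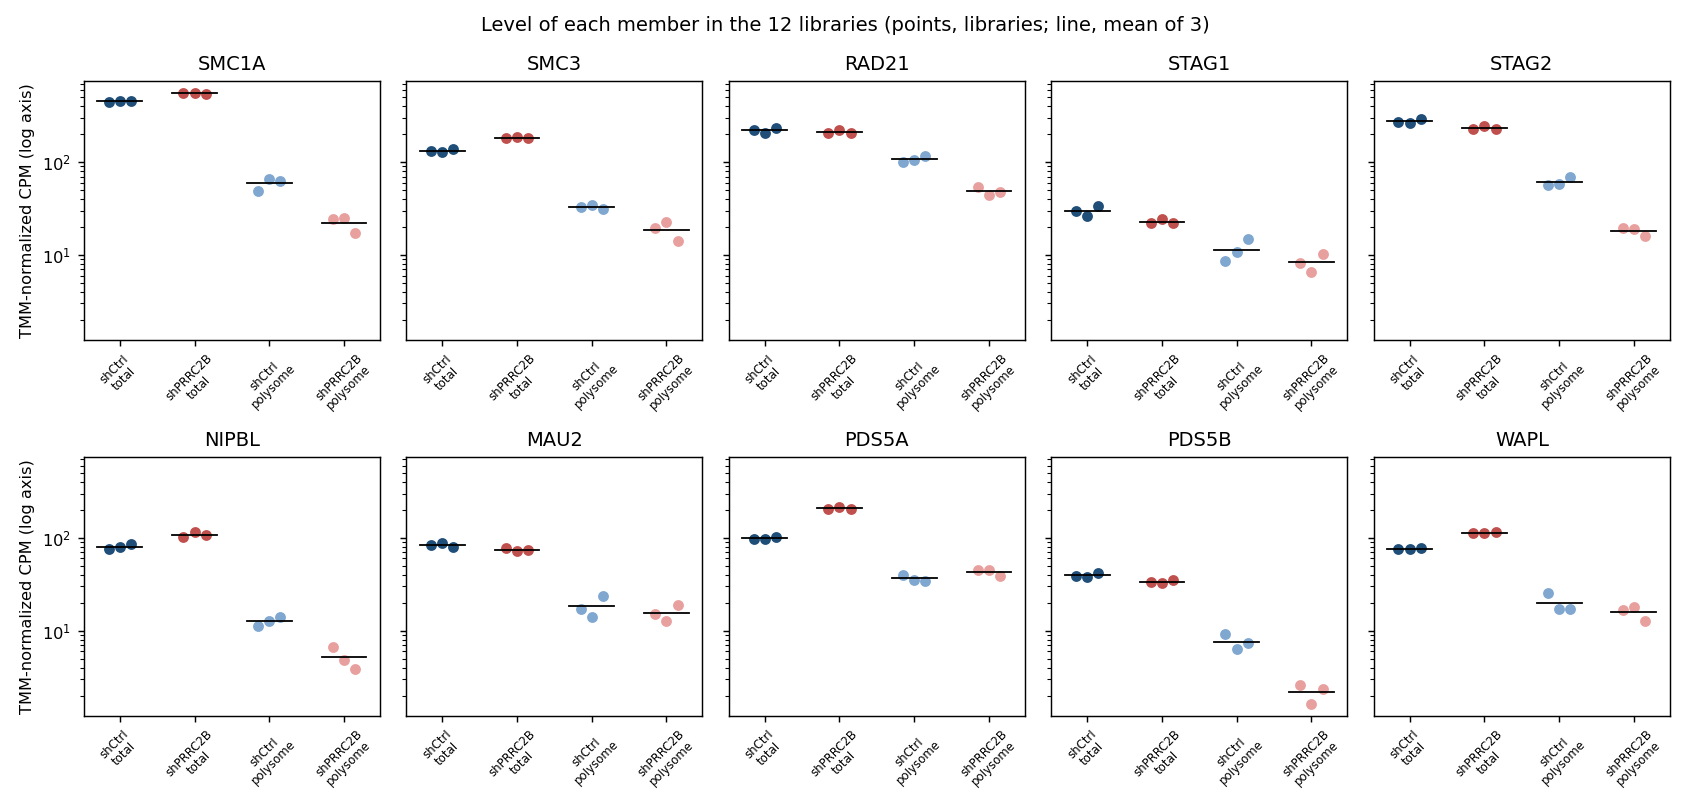
TMM-normalized CPM (y axis, log scale) of the 10 members in the 12 libraries, by line and fraction (points, libraries; lines, means of 3). Polysome levels lie below total levels for every member in both lines, and the polysome levels of SMC1A, SMC3, RAD21, STAG2, NIPBL and PDS5B are lower in shPRRC2B than in shCtrl cells without overlap.

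The STAG subunits, which are alternatives in the same complex, had different values. Their canonical transcripts are of almost the same length (6062 nt for STAG1 and 6179 nt for STAG2). STAG2 measured 270.2, 264 and 289.7 CPM in shCtrl total RNA and 229.8, 246 and 228 CPM in shPRRC2B total RNA. Its polysome levels were 56.9, 58.2 and 69.5 CPM in shCtrl and 19.6, 19.1 and 15.9 CPM in shPRRC2B cells. The polysome groups lay far apart, with a change of -1.76 (SE 0.13, adjusted p = 3.3e-08), while the total RNA change of -0.23 (SE 0.12, adjusted p = 0.152) did not pass. TE of STAG2 fell by 1.53 on the log2 scale (SE 0.18, adjusted p = 2.65e-05).

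STAG1 was less abundant per kilobase in all 4 groups. Its total RNA stood at 29.6, 26.5 and 34.0 CPM in shCtrl and at 21.8, 24.5 and 22.0 CPM in shPRRC2B cells. In polysomes it was 8.62, 10.9 and 14.9 CPM in shCtrl and 8.25, 6.59 and 10.2 CPM in shPRRC2B cells, and these groups overlapped. The total RNA change (-0.40, SE 0.18, adjusted p = 0.103), the polysome change (-0.45, SE 0.21, adjusted p = 0.0928) and the TE change (-0.05, SE 0.28, adjusted p = 0.921) did not pass. The polysome change passed when the first shCtrl polysome library was left out (-0.71, adjusted p = 0.00883) or the third shPRRC2B one (-0.70, adjusted p = 0.026), and when every gene with at least 1 count was tested (-0.53, adjusted p = 0.0483). STAG1 shares 1661 nt of exon sequence with the antisense gene PCCB.

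The ratio of 2 genes within a library does not depend on how libraries are scaled. It is not corrected for length, so only its change between groups is read. Since TE changes followed length, this change can still hold a part from length, which was not removed from any ratio. By canonical transcript STAG1 and STAG2 are alike in length, but NIPBL and MAU2 (10425 and 4845 nt) and SMC1A and SMC3 (9710 and 5522 nt) are not. All annotated exons come to 7843 nt for STAG1 and 15987 nt for STAG2, so their likeness depends on the length used. STAG2 counts were 9.18 times STAG1 counts in shCtrl total RNA (geometric mean of 3 libraries) and 10.3 times in shPRRC2B total RNA. In polysomes the ratio was 6.61, 5.36 and 4.68 in the shCtrl libraries and 2.38, 2.90 and 1.56 in the shPRRC2B libraries. The mean log2 ratio in polysomes was thus 1.32 lower in shPRRC2B cells. An exact two-sided permutation test of 3 against 3 libraries gave p = 0.1, the smallest p this design allows, and 0.109 after Benjamini-Hochberg adjustment over 12 ratio comparisons.

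The 2 loader genes also had different values. NIPBL, which carries the shared coding site shown above, measured 76.2, 79.5 and 85.5 CPM in shCtrl total RNA and 101, 115 and 108 CPM in shPRRC2B total RNA. Its polysome levels were 11.1, 12.8 and 13.9 CPM in shCtrl and 6.71, 4.87 and 3.90 CPM in shPRRC2B cells, from 41 to 78 counts in the latter. The shPRRC2B libraries were all higher in total RNA and all lower in polysomes. The polysome change was -1.28 (SE 0.18, adjusted p = 2.45e-05), the total RNA change 0.43 (SE 0.14, adjusted p = 0.0238, under the size set for a call) and the TE change -1.71 (SE 0.23, adjusted p = 6.87e-05).

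MAU2, the partner that binds the N-terminal part of NIPBL, stood at 84.1, 87.7 and 79.1 CPM in shCtrl total RNA and at 77.1, 72.1 and 74.8 CPM in shPRRC2B total RNA. In polysomes it was 17.0, 14.0 and 23.8 CPM in shCtrl and 15.2, 12.8 and 18.8 CPM in shPRRC2B cells. The polysome groups overlapped, and none of the changes passed the test (total RNA -0.16, adjusted p = 0.453; polysome RNA -0.23, adjusted p = 0.322; TE -0.06, SE 0.24, adjusted p = 0.886). The ratio of NIPBL to MAU2 counts moved from 0.961 to 1.45 in total RNA and from 0.703 to 0.326 in polysomes. Both moves were without overlap between the lines (exact permutation p = 0.1 each, the smallest possible).

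The PDS5 genes, paralogs that bind the ring in place of one another, had different values. PDS5A rose in total RNA from 96.5, 97.0 and 103 CPM to 204, 216 and 207 CPM, a log2 change of 1.08 (SE 0.11, adjusted p = 2.03e-06). Its polysome levels were 39.8, 35.0 and 34.6 CPM in shCtrl and 45.5, 45.6 and 38.9 CPM in shPRRC2B cells. They overlapped, with a change of 0.25 (SE 0.12, adjusted p = 0.0974). The TE change of -0.83 (SE 0.16, adjusted p = 0.00119) thus came with a 2.12-fold mRNA level and no called loss of polysome RNA. With the length trend removed, PDS5A was called higher in polysome RNA (0.76, adjusted p = 4.72e-05) and was not called in TE (-0.19, adjusted p = 0.395).

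PDS5B had the lowest mean polysome level per kilobase in both lines. It stood at 9.18, 6.40 and 7.32 CPM in shCtrl and 2.58, 1.62 and 2.38 CPM in shPRRC2B polysomes, or 17 to 30 counts in the latter. In total RNA it was 38.8, 38.2 and 42.2 CPM in shCtrl and 33.1, 32.6 and 34.7 CPM in shPRRC2B cells. Polysome RNA fell by 1.80 on the log2 scale (SE 0.21, adjusted p = 4.01e-06), the largest polysome fall of the 10 members. The TE change was -1.55 (SE 0.26, adjusted p = 0.000378), while the total RNA change of -0.25 (SE 0.15, adjusted p = 0.211) did not pass. The ratio of PDS5A to PDS5B counts went from 2.49 to 6.24 in total RNA and from 4.82 to 20.1 in polysomes, again without overlap and with p = 0.1 each in the exact permutation test.

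WAPL, the release factor, rose in total RNA from 75.1, 76.1 and 78.6 CPM to 112, 113 and 114 CPM (log2 change 0.56, SE 0.15, adjusted p = 0.00697). This call is close to the limit of size, and the change was 0.49 when libraries were scaled by their totals alone and 0.45 with the length trend removed. In polysomes WAPL was 25.5, 17.1 and 17.3 CPM in shCtrl and 16.9, 17.9 and 12.6 CPM in shPRRC2B cells, which overlapped (-0.35, SE 0.17, adjusted p = 0.0998). The polysome change passed when any of 4 polysome libraries was left out, the second or the third of shCtrl (-0.55 each) or the first or the second of shPRRC2B (-0.51 and -0.52). TE fell by 0.91 (SE 0.22, adjusted p = 0.00592). PDS5A and WAPL were the 2 members called higher in total RNA, and 0 were called lower (1 at an unadjusted p under 0.05, and 0 by DESeq2 and limma). Of all genes tested, 14.9% were called higher in total RNA and 14.1% lower.

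**Figure D4:**
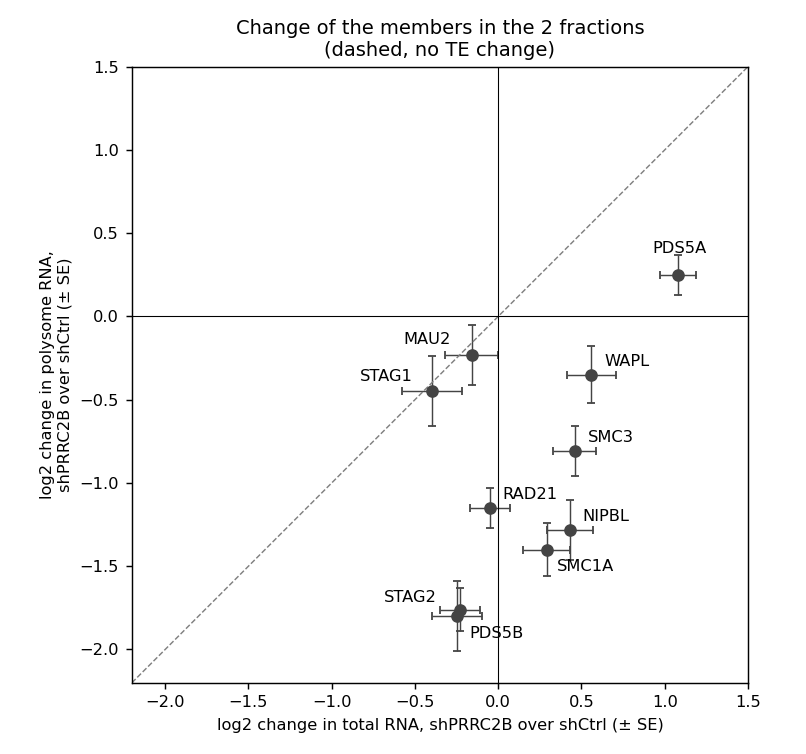
Log2 change in polysome RNA (y axis) against log2 change in total RNA (x axis), shPRRC2B over shCtrl, for the 10 members (points, ± SE on both axes). On the dashed diagonal the TE change is 0; STAG1 and MAU2 lie near it and the other members below it, PDS5A and WAPL with higher total RNA and the others mainly through lower polysome RNA.

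The lower TE calls are sorted here by the calls in each fraction, and a difference between the sorts was not tested. SMC1A, SMC3, RAD21, STAG2, NIPBL and PDS5B were called lower in polysome RNA with no call in total RNA. PDS5A and WAPL were called higher in total RNA with no call in polysome RNA. The total RNA change of WAPL (0.56) was close to those of SMC3 (0.46) and NIPBL (0.43), which lay under the limit of 0.5. STAG1 and MAU2 had no call in either fraction.

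**Figure D5:**
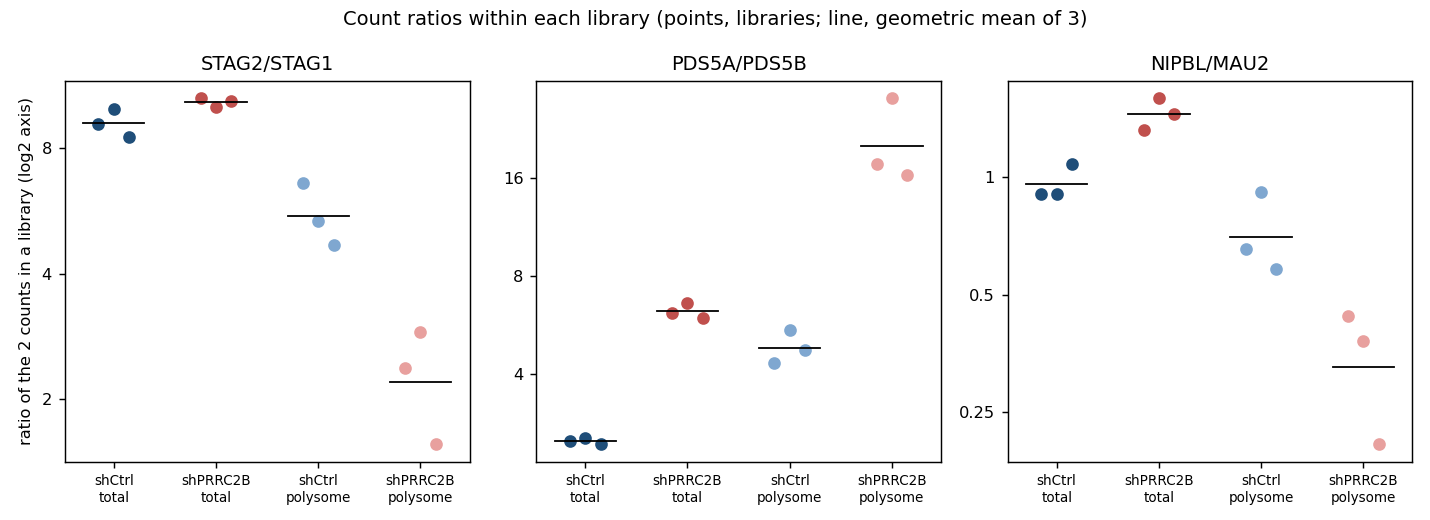
Ratio of the counts of STAG2 to STAG1, PDS5A to PDS5B and NIPBL to MAU2 in each library (y axis, log2 scale), by line and fraction (points, libraries; lines, geometric means of 3). In polysome RNA the shPRRC2B libraries lie below the shCtrl libraries for STAG2/STAG1 and NIPBL/MAU2 and above them for PDS5A/PDS5B, without overlap.

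Count ratios were also taken within the core ring. SMC1A counts were 3.40 times SMC3 counts in shCtrl and 3.01 times in shPRRC2B total RNA, and 1.77 and 1.19 times in polysomes. RAD21 counts were 1.66 and 1.16 times SMC3 counts in total RNA and 3.25 and 2.62 times in polysomes. The RAD21 to SMC3 ratio in polysomes was the only one of the 12 comparisons whose libraries overlapped between the lines (exact permutation p = 0.4), and the 3 other core ring comparisons gave p = 0.1 each (0.109 adjusted), which does not pass. WAPL counts were 0.777 and 0.542 times PDS5A counts in total RNA and 0.539 and 0.361 times in polysomes.

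Relative to the median gene, every member was lower in polysome than in total RNA in both lines. With the length trend removed, 8 of 10 were still called lower in each line. Of all genes, 31.3% were then called lower and 30.2% higher in shCtrl cells, and 34.9% lower and 34.9% higher in shPRRC2B cells. Without that correction the log2 ratio of polysome to total RNA in shCtrl cells ran from -1.04 (RAD21) to -2.94 (SMC1A). All 10 members were called lower, against 39.8% of all genes called lower and 32.5% called higher. In shPRRC2B cells it ran from -1.45 (STAG1) to -4.63 (SMC1A), and all 10 were again called lower, against 42.3% lower and 36.6% higher. The median over all genes was -0.22 in both lines, and -1.26 in shCtrl and -1.71 in shPRRC2B cells for transcripts over 3500 nt. Scaling by library totals alone moved the median of all genes to -1.22 in shCtrl cells and -1.16 in shPRRC2B cells, so these ratios are relative to the median gene and are not a fraction of molecules. NIPBL went from -2.67 to -4.38, STAG2 from -2.16 to -3.69 and PDS5B from -2.37 to -3.92, whereas MAU2 (-2.19 and -2.26) and STAG1 (-1.39 and -1.45) stood almost at the same value in both lines. With the length trend removed the calls of STAG1 (-0.10 in shCtrl and 0.40 in shPRRC2B cells) and PDS5A (0.06 and -0.13) were lost in both lines.

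The order of the members in the control line was compared as CPM per kilobase of canonical transcript. In shCtrl total RNA RAD21 was highest at 60.2 ± 3.65 (SD, n = 3), followed by SMC1A at 46.5 ± 0.898 and STAG2 at 44.4 ± 2.19, whose values overlapped. SMC3 (24.1), MAU2 (17.3), PDS5A (13.8), WAPL (12.1) and NIPBL (7.71) followed, each apart from its neighbour. PDS5B (5.31) and STAG1 (4.95) were lowest and overlapped. The highest level was 12.2 times the lowest. In shPRRC2B total RNA RAD21 (58.1) and SMC1A (56.8) overlapped at the top, and PDS5A (29.3) and WAPL (17.9) stood above MAU2 (15.4).

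In polysome RNA the span per kilobase of canonical transcript was 28.8-fold in shCtrl and 45.2-fold in shPRRC2B cells. With the length of all annotated exons it was 12.9-fold and 21.3-fold, against 13.9-fold and 20.1-fold in total RNA, so whether the span was wider in shCtrl polysomes depends on the length used. By canonical length RAD21 led in both lines, with 29.4 ± 2.47 and 13.3 ± 1.40 CPM per kilobase. STAG2 (9.96) was the next member in shCtrl polysomes, ahead of SMC1A (6.08) and SMC3 (5.98), which overlapped. In shPRRC2B polysomes PDS5A (6.07) was next, and SMC3 (3.40), MAU2 (3.22), STAG2 (2.95), WAPL (2.50) and SMC1A (2.30) followed with each neighbour overlapping. NIPBL (1.21 and 0.495) and PDS5B (1.02 and 0.294) were lowest in both lines. The order depends on the length used, since with the length of all annotated exons SMC1A (41.7) was above STAG2 (17.2) and RAD21 (15.3) in shCtrl total RNA.

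The profile of each member over the 12 libraries was compared with the members' mean, which includes the member itself. STAG1 (0.941) and MAU2 (0.971) were high without a TE call, so the correlation does not describe the TE change. Pearson's r of log2(CPM + 1) with the mean of the members' standardized values lay between 0.892 (PDS5A) and 0.997 (NIPBL) as a description over libraries that all share the gap between fractions. Among the 5 other genes most like that mean, of 10009 compared, were PRKDC (0.999), PCM1 (0.999), HUWE1 (0.998) and SYNE2 (0.998), with transcripts of 8652 to 21822 nt.

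Other genes of the cohesin pathway and the related SMC complexes were taken from fixed lists of 40 genes, of which 37 were tested. TE was called lower for 10 of these (14 by DESeq2) and higher for 0, with 2 higher at an unadjusted p under 0.05 and 0 by DESeq2 and limma (16.4% and 10.7% of all genes). Their median transcript length was 3920 nt. In the list for cohesion establishment, acetylation and removal 4 of 15 fell, among them WDHD1 (-1.07, adjusted p = 0.00273), a replisome protein that acts in cohesion, and ESCO1 (-0.79) and ESCO2 (-0.98), the acetyltransferases of SMC3. HDAC8, the SMC3 deacetylase, had the highest value (0.69, adjusted p = 0.0952) and did not pass in TE, but rose in polysome RNA (0.96, adjusted p = 0.00148). Of the boundary factors CTCF, at which cohesin loops stop, fell in TE (-1.13, adjusted p = 0.00986), and MAZ was at 0.48 (adjusted p = 0.067). Of the 4 meiotic subunits, which had at most 18 to 135 counts in any library, 0 passed in TE, with STAG3 highest (1.24, SE 0.81) and REC8 lowest (-2.07, SE 1.04).

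Among the 8 condensin genes, which build the mitotic chromosome, 4 fell in TE and the median was -0.58. SMC2, an arm shared by both condensins, was lowest (-1.63, adjusted p = 0.000655) and NCAPH2 highest (0.17, adjusted p = 0.467). In the SMC5/6 complex, a DNA repair complex, 1 of 7 genes tested fell, which was SMC5 itself (-1.68, adjusted p = 0.00532), and NSMCE4A was highest (0.23). With the length trend removed, 5 of the 37 were called lower and 1 higher, against 9.93% and 10.8% of all genes. The 5 were SMC5 (-1.16), SMC2 (-1.11), TIPIN (-0.92), CTCF (-0.86) and DSCC1 (-0.54). TIPIN and DSCC1 are in the list for cohesion establishment, acetylation and removal, of which ESCO1, ESCO2 and WDHD1 were no longer called.

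The positions of the genes, all on GRCh38, are as follows. SMC1A lies at chrX:53374149-53422728 on the minus strand with 25 exons, and 5954 nt of its 9710 nt mRNA are 3' UTR, the longest of the set. NIPBL lies at chr5:36876769-37066413 on the plus strand with 47 exons and the longest coding sequence, 8415 nt. SMC3 is at chr10:110567684-110606048 (plus strand), RAD21 at chr8:116845934-116874776 (minus) and WAPL at chr10:86435256-86521792 (minus). STAG1 is at chr3:136336236-136752403 (minus), STAG2 at chrX:123960212-124422664 (plus) and MAU2 at chr19:19320829-19358754 (plus). PDS5A is at chr4:39822863-39977956 (minus) and PDS5B at chr13:32586452-32778019 (plus).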

How the data were processed

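Total and polysome-associated RNA of 12 libraries was measured. The deposited values are counts: the authors trimmed the read pairs with Trimmomatic 0.36, mapped them to GRCh38 with HISAT2 2.1.0 and counted them per gene name of GENCODE 38 with featureCounts of Subread 2.0.1 (versions from the submitters' processing notes), without normalization. No strand or multi-mapping option is stated. Groups were read from the labels. The 36 h of induction are those of the study's methods.

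Counts were analysed with edgeR 4.0.16 in R 4.3.3. Genes were kept by filterByExpr (minimum count 10), libraries were scaled by TMM, and 1 quasi-likelihood fit over the 4 groups gave all changes. The replicate number was not used as a block. Benjamini-Hochberg adjustment was over all genes tested, and calls needed an adjusted p below 0.05 and a change past 0.5 on the log2 scale, the study's limits. SEs are the size of the change over the square root of F. The fit was tested on simulated counts. Transcript lengths and positions came from GENCODE 44, which is not the release used for counting, and sites from the study's PAR-CLIP site positions, with sequence read from GRCh38. CPM is TMM-normalized.

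All 10 members are named, with the genes of highest and lowest TE change in each other list, the 5 most alike profiles, of which 1 is not reported here, and PRRC2B. ESCO1, ESCO2, TIPIN and DSCC1 and the polysome change of HDAC8 were picked after their values were seen. The members and lists were chosen with earlier results of these data known. Alternatives were DESeq2 1.42.0, limma 3.58.1 on log2(CPM + 1), 3 other scalings, 2 other filters, a replicate block, a lowess length trend (span 0.3) as an offset, that trend with the block, 1 fraction alone, no minimum change, other lengths and each library left out in turn. The background of transcripts over 3500 nt was added after the data were seen.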

Additional observations from a re-analysis of the deposited data

Results flagged for a closer look

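For 3 members the difference between the lines had opposite directions in the 2 fractions, with every shPRRC2B library above every shCtrl library in total RNA and below it in polysome RNA. The difference between the fractions is the TE change, tested as an interaction by edgeR's quasi-likelihood test. It was -1.71 for NIPBL (adjusted p = 6.87e-05), -1.69 for SMC1A (adjusted p = 4.28e-05) and -1.28 for SMC3 (adjusted p = 0.000219). In none of the 3 was the total RNA change itself called. Only members called in TE could be flagged, so these p-values give no further support. In total RNA the lines did not overlap for 9 of the 10 members, a count that was not made over all genes tested. How many of all genes tested have the flagged pattern was not counted either.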

How the results depend on the processing

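The members called lower in TE were 8 of 10 under DESeq2, limma, the 3 other scalings, the 2 other filters, no minimum change, the replicate block and each of the 12 left-out libraries, and 6 with the length trend removed, with or without the block; higher calls stayed at 0. Of all genes, 8.86% (at least 1 count) to 20.7% (10 counts in every library) were called lower in TE, and 9.93% with the length trend removed. Shares with no minimum change were not counted. Higher in total RNA were 2 members, and 4 with no minimum change. It was 1 with library totals alone (11.8% of all genes) or the length trend removed (14.1%, and 13.7% with the block). With the length trend removed 1 (STAG1) was lower in total RNA, against 13.8% of all genes. In polysome RNA 1 (PDS5A) was then higher, against 20.8%, and also with the block, against 20.2%. Lower in polysome RNA were 6 members, 5 with the length trend removed, and 6 to 7 otherwise. The shares of all genes there were 16.1% (15.5% with the block) with the trend removed and 12.5% to 24.5% otherwise. The median TE change of -1.19 became -0.82 under both length settings and lay between -1.31 and -1.13 with a library left out. The sign of STAG1's TE change turned with library totals or TMM within fractions (0.01), 10 counts in every library (0.02), the length trend removed (0.50) and that with the block (0.49), and ranged from -0.26 to 0.13 with a library left out. MAU2's was 0.00, 0.01, 0.36 and 0.37 under the last 4 of these, and -0.27 to 0.11. The length trend removed, without and with the block, also turned polysome changes of STAG1 (0.00 and 0.01), MAU2 (0.14 and 0.15) and WAPL (0.11 in both), and polysome-to-total ratios of PDS5A in shCtrl (0.06 in both) and STAG1 in shPRRC2B (0.40 and 0.38). With all-exon lengths the spans of levels were 13.9 and 20.1 in shCtrl and shPRRC2B total RNA and 12.9 and 21.3 in polysomes, and the shCtrl polysome span was 26.8 to 33.1 with a library left out. Why these values moved was not tested beyond the settings' own construction.

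No pairing by replicate number was detected. Deviations of same-numbered total and polysome libraries correlated at 0.01 to 0.05, and 0 of 6 pairs exceeded 0.1. Such low correlations cannot show that same-numbered libraries came from different cultures. With the block alone all 8 lower TE calls remained. Low polysome counts of PDS5B (17 to 30) and NIPBL (41 to 78) limit their precision.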
